A study of Rattus norvegicus with 4 samples.

Results

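The 50 genes described here belong to the unfolded protein response and the integrated stress response. They were chosen by name: stress sensors, chaperones of the endoplasmic reticulum (ER), genes of ER-associated degradation (ERAD), targets of the transcription factors ATF4 and CHOP, and amino acid response genes. Of the 50, 49 were among the 15172 genes listed in the deposited table, and all 49 were among the 13953 genes tested. Phgdh was not analysed here. Messenger RNA was measured by RNA sequencing in INS-1 832/13 cells, an insulin-secreting insulinoma line of the rat, 36 h after transfection. The siScramble group (2 samples, controls) received a non-targeting siRNA, and the siTbk1 group (2 samples) received a pool of siRNAs against Tbk1, the kinase TANK-binding kinase 1. Both groups were 1 cell line grown in the same medium and treated with the same transfection reagent, and the siRNAs lower a transcript without deleting the gene. The samples carry the numbers 2 and 3 in each group, and no label says that they came from separate cultures. The p-values therefore rest only on the spread between these samples, shared in part across genes, and that spread may be technical.

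The ER folds secreted and membrane proteins, and unfolded protein in its lumen is sensed by 3 membrane proteins: IRE1 (encoded by Ern1), ATF6 and PERK (encoded by Eif2ak3). IRE1 splices the Xbp1 transcript, ATF6 is cut to release a transcription factor, and PERK phosphorylates the initiation factor eIF2, which lowers general translation and favours that of ATF4. Amino acid shortage reaches the same initiation factor through GCN2 (encoded by Eif2ak4), and the shared part of these pathways is the integrated stress response (ISR). Beta cells make large amounts of proinsulin and depend on these pathways for its folding.

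Total counts ranged from 38428926 to 47759013 per sample. The targeted gene, Tbk1, measured 2315 and 2261 normalized counts in the controls and 510 and 575 in the siTbk1 samples, so that both siTbk1 samples lay below both controls (log2 fold change -2.08, SE 0.076, edgeR adjusted p = 3.74e-08). Here and throughout, normalized counts are counts scaled with TMM factors to a common library size, the 2 values of a group are given in the order replicate 2, replicate 3, and fold changes are siTbk1 over siScramble with their standard error (SE). Adjusted p-values are those of the quasi-likelihood test in edgeR, adjusted by the Benjamini-Hochberg method across the 13953 tested genes. That test draws each gene's variance towards a trend over all genes, so an SE does not rest on the gene's own samples alone. Of 12 beta cell markers, 11 were listed, and they went both ways, with 3 higher and 5 lower at an adjusted p under 0.05. Ins1 was at 10512 and 11320 CPM (counts scaled to a library of 1000000) in the controls and at 7407 and 6132 CPM in the siTbk1 samples, while Iapp, which encodes amylin, was at 933 and 1009 CPM and at 1192 and 1244 CPM. Gcg, a marker of alpha cells, was present too, at 1406 and 1341 CPM in the controls and at 803 and 862 CPM in the siTbk1 samples, and its part in the results was not tested. The other 11 markers of other cell types were not listed or reached at most 0.286 CPM. By the table's positions, Atf6b, Eif2ak4, Ddit3, Dnajb9, Dnajc3, Pdia3 and Syvn1 overlap a gene listed on the opposite strand. Canx and Pdia6 overlap one on the same strand. Dnajb9 and Pdia6 share the same listed partner, LOC108348062, although they lie far apart on chromosome 6, so its listed span may be an error. The libraries were stranded, but whether the counting used strand is not given in the sources used here, so reads of such pairs may not be told apart.

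Genes of the stress responses moved in both directions, by small amounts. At an adjusted p under 0.05, siTbk1-treated cells had higher levels of 16 genes (32.7% of the 49) and lower levels of 9 genes (18.4%), and the other 24 did not pass. Among all tested genes, 24.4% passed as higher and 24.8% as lower, so the share of stress genes that passed in either direction, 51.0%, was close to the 49.2% of all genes. The median log2 fold change of the 49 genes was 0.034, against 0.0071 for all tested genes. In bulk RNA, fewer cells that express a gene and less RNA per cell cannot be told apart. With the added limit of a 1.5-fold change, 1 of the 49 genes was higher, Ero1a, and 0 were lower, against 4.81% and 6.18% of all tested genes. By DESeq2 and by limma-voom the same limits also gave 1 higher and 0 lower. At an unadjusted edgeR p under 0.05 without a fold limit, 19 of the 49 were higher and 9 lower. Among all 13953 tested genes, 3844 were higher and 3886 lower at that limit. Both siTbk1 samples lay above both controls for 22 genes and below them for 15 genes, which is 44.9% and 30.6% of the 49, against 38.7% and 37.9% of all tested genes. The median size of the change, regardless of sign, was 0.19 on the log2 scale for the 49 genes and 0.25 for all genes.

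**Figure D1:**
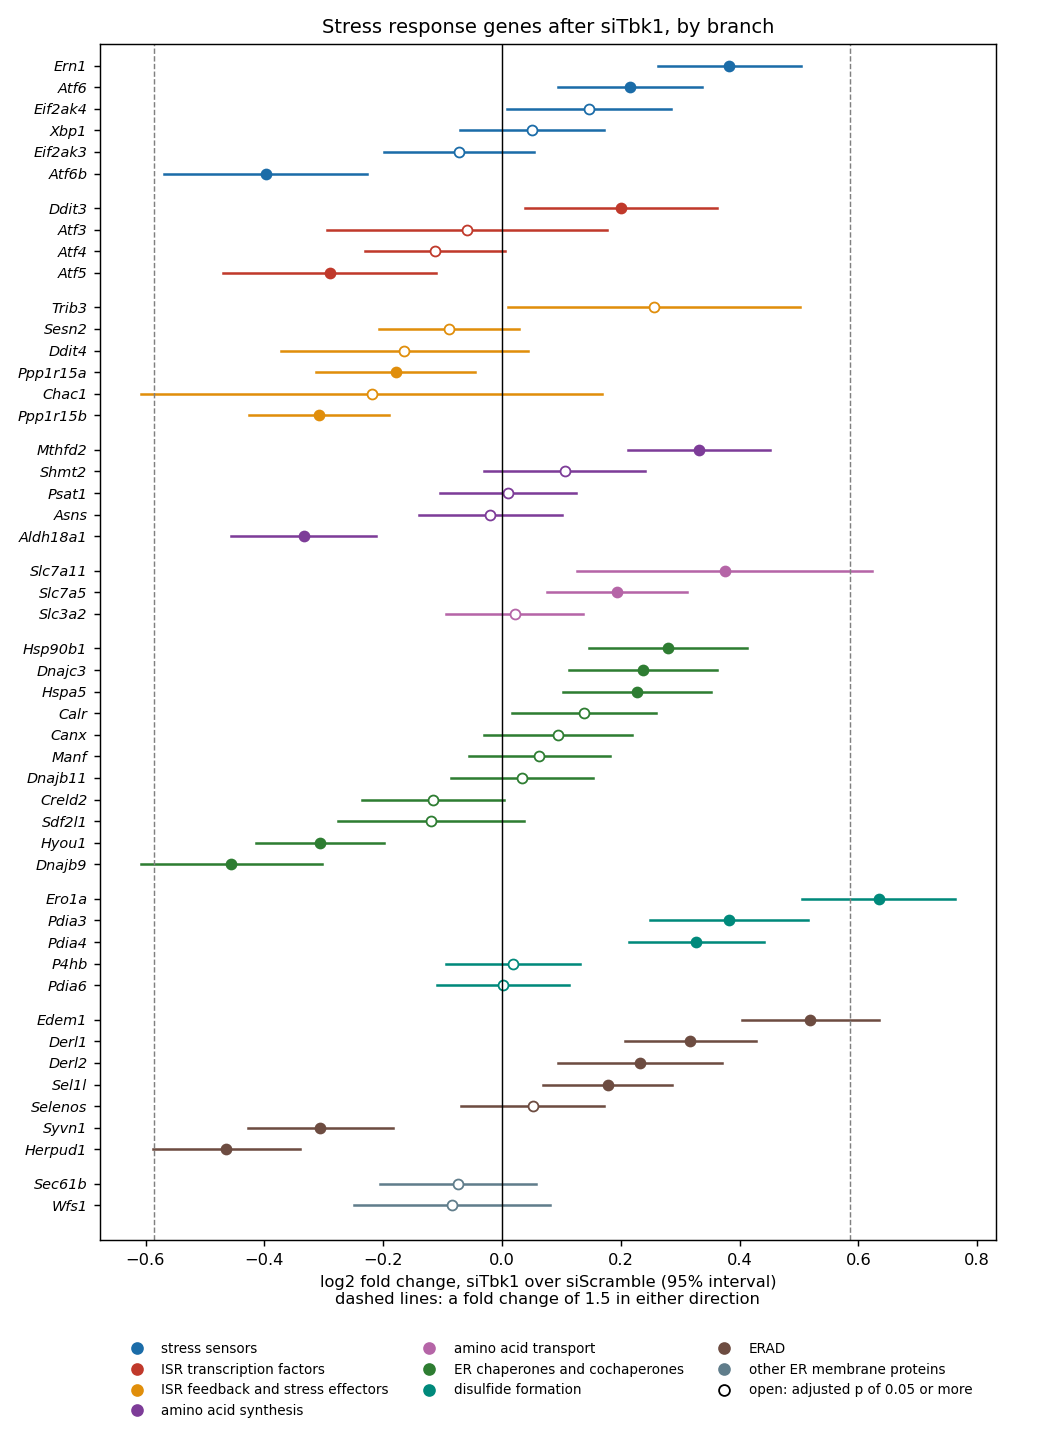
Log2 fold change of each of the 49 tested genes (siTbk1 over siScramble, 2 samples per group) with its 95% interval, grouped by branch. Filled points have an adjusted p under 0.05 and dashed lines mark a 1.5-fold change. Only Ero1a, at 0.63, lies past a dashed line, and most branches hold genes on both sides of 0.

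Among the 6 stress sensors and their direct partners, 2 rose, 1 fell and 3 did not pass. That is 50% past the limit in either direction, close to the 49.2% of all tested genes. Ern1, which encodes the kinase and RNase IRE1, measured 3030 and 3024 normalized counts in the controls and 3980 and 3913 in the siTbk1 samples. Its 2 siTbk1 samples were close to each other and above both controls, 1.30-fold higher (log2 fold change 0.38, SE 0.055, edgeR adjusted p = 1.54e-04). Atf6, the ATF6 sensor, measured 3695 and 3574 normalized counts in the controls and 4280 and 4156 in the siTbk1 samples and rose 1.16-fold (log2 fold change 0.22, SE 0.056, edgeR adjusted p = 0.00680). Its paralogue Atf6b measured 3735 and 4183 normalized counts in the controls and 3230 and 2769 in the siTbk1 samples. Atf6b fell, with both siTbk1 samples below both controls (log2 fold change -0.40, SE 0.078, edgeR adjusted p = 0.00125), and the samples of each group differed more from each other than those of Atf6. The ratio of Atf6 to Atf6b counts, on the log2 scale, was therefore -0.016 and -0.23 in the control samples and 0.41 and 0.59 in the siTbk1 samples. Since this ratio follows from the opposite changes of the same genes, its shift adds no support. The reads of Atf6b were in part split with other genes, which makes its count less certain.

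Xbp1, the substrate of IRE1, measured 4652 and 4717 normalized counts in the controls and 4695 and 5010 in the siTbk1 samples, and the groups overlapped (log2 fold change 0.05, SE 0.056, edgeR adjusted p = 0.483). Gene-level counts do not separate spliced from unspliced Xbp1. Eif2ak3, which encodes PERK, measured 2777 and 2690 normalized counts in the controls and 2627 and 2574 in the siTbk1 samples, a log2 fold change of -0.072 with a 95% interval from -0.20 to 0.054 and an edgeR adjusted p of 0.329. Eif2ak4, which encodes GCN2, measured 1510 and 1562 normalized counts in the controls and 1671 and 1729 in the siTbk1 samples (log2 fold change 0.15, SE 0.063, edgeR adjusted p = 0.0735). Of these sensors, Ern1 and Atf6b passed in all 17 other fits that tested against no change. Atf6 did not pass without siTbk1 replicate 2 (log2 fold change 0.18, edgeR adjusted p = 0.0613) or with an offset for gene length (log2 fold change 0.098, edgeR adjusted p = 0.177). That offset removes each library's trend along the genomic span of genes.

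The transcription factors of the integrated stress response showed no shared direction, with 1 of 4 higher and 1 lower. The 50% that passed is close to the 49.2% of all tested genes. Atf4, the central activator of amino acid synthesis genes, measured 9779 and 9112 normalized counts in the controls and 8737 and 8734 in the siTbk1 samples. Both siTbk1 samples lay below both controls, by less than the test's limit (log2 fold change -0.11, SE 0.054, edgeR adjusted p = 0.102). Because ATF4 is controlled largely at translation, its transcript does not measure the protein. Atf5, a related factor under the same translational control, measured 3092 and 3794 normalized counts in the controls and 2810 and 2815 in the siTbk1 samples and fell (log2 fold change -0.29, SE 0.082, edgeR adjusted p = 0.0114). The 2 Atf5 controls differed from each other by more than the lower of them differed from the siTbk1 samples, and without siScramble replicate 3 the log2 fold change was -0.14 and the edgeR adjusted p was 0.175. With the gene length offset the edgeR adjusted p of Atf5 was 0.0568.

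Ddit3, which encodes the pro-apoptotic factor CHOP, measured 807 and 837 normalized counts in the controls and 924 and 965 in the siTbk1 samples and passed narrowly (log2 fold change 0.20, SE 0.074, edgeR adjusted p = 0.0413). It did not pass when any of the 4 samples was left out (edgeR adjusted p = 0.0681 to 0.202), nor with DESeq2 (adjusted p = 0.142) or without TMM factors (edgeR adjusted p = 0.111). Atf3, a stress-induced repressor, measured 566 and 555 normalized counts in the controls and 597 and 475 in the siTbk1 samples, and its groups overlapped (log2 fold change -0.058, SE 0.11, edgeR adjusted p = 0.687).

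Of the 6 feedback and effector genes, 5 had negative log2 fold changes, and 2 of these passed as lower. Of all tested genes, 6860 of 13953 lay below 0 and 24.8% passed as lower. With 6 genes no pattern is read from these counts. Ppp1r15b, the constitutive partner that directs a phosphatase to eIF2, measured 6105 and 5780 normalized counts in the controls and 4794 and 4806 in the siTbk1 samples. Its siTbk1 samples were nearly equal and both below the controls, a fall of 0.31 on the log2 scale with SE 0.054 and an edgeR adjusted p of 5.82e-04. Ppp1r15a, the stress-induced partner GADD34, measured 1830 and 1844 normalized counts in the controls and 1648 and 1597 in the siTbk1 samples (log2 fold change -0.18, SE 0.062, edgeR adjusted p = 0.0298). Ppp1r15a passed only narrowly. Its adjusted p lay between 0.0510 and 0.171 when any 1 sample was left out of the edgeR fit, and was 0.341 with the gene length offset and 0.0628 with DESeq2, and part of its reads were split with other genes.

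Trib3, an inhibitor of Akt induced by CHOP, measured 286 and 289 normalized counts in the controls and 366 and 320 in the siTbk1 samples, with both siTbk1 samples above both controls but an edgeR adjusted p of 0.0789. Without siTbk1 replicate 3, the adjusted p of Trib3 was 0.0487 in edgeR at a log2 fold change of 0.35. Chac1, which degrades glutathione, measured 174 and 165 normalized counts in the controls and 172 and 117 in the siTbk1 samples. The 2 siTbk1 samples of Chac1 differed more from each other than the group means did, and the sign depended on them: the log2 fold change was -0.56 without siTbk1 replicate 2 (edgeR adjusted p = 0.0253) and 0.020 without siTbk1 replicate 3 (edgeR adjusted p = 0.943). Sesn2 and Ddit4, which restrain mTORC1, had log2 fold changes of -0.089 and -0.16, and neither passed. Counts of the 6 genes summed to 0.0418% of all counts in each control and to 0.0370% and 0.0352% in the siTbk1 samples.

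Of the 5 amino acid synthesis genes tested, 1 rose, 1 fell and 3 did not pass. In either direction 40% passed, where 49.2% of all tested genes did. Mthfd2, a mitochondrial enzyme of one-carbon metabolism, measured 3028 and 3019 normalized counts in the controls and 3829 and 3779 in the siTbk1 samples and rose (log2 fold change 0.33, SE 0.055, edgeR adjusted p = 4.05e-04). Aldh18a1, which makes the precursor of proline and ornithine, measured 5256 and 5022 normalized counts in the controls and 4169 and 3986 in the siTbk1 samples. It fell by 0.33 on the log2 scale (SE 0.056, edgeR adjusted p = 4.31e-04), with both siTbk1 samples below both controls. Asns, the asparagine synthetase often used as an ATF4 readout, measured 4226 and 4108 normalized counts in the controls and 4035 and 4191 in the siTbk1 samples, and the groups overlapped. The 95% interval of the Asns log2 fold change ran from -0.14 to 0.10. Psat1, of serine synthesis, and Shmt2, the mitochondrial serine hydroxymethyltransferase, had log2 fold changes of 0.01 and 0.11. Reads of Asns, Psat1, Mthfd2 and Aldh18a1 were in part split with other genes.

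Amino acid transporter genes passed as higher in 2 of 3 cases, where 24.4% of all tested genes passed as higher. Slc7a11, the cystine and glutamate exchanger xCT, measured 356 and 350 normalized counts in the controls and 413 and 507 in the siTbk1 samples. Both siTbk1 samples lay above the controls but apart from each other (log2 fold change 0.37, SE 0.11, edgeR adjusted p = 0.0164), and without siTbk1 replicate 3 the log2 fold change was 0.23 (edgeR adjusted p = 0.18). With the gene length offset the edgeR adjusted p of Slc7a11 was 0.0598. Slc7a5, the large neutral amino acid transporter LAT1, measured 8122 and 8003 normalized counts in the controls and 9529 and 8903 in the siTbk1 samples (log2 fold change 0.19, SE 0.054, edgeR adjusted p = 0.0106). Slc7a5 did not pass without siTbk1 replicate 2 (edgeR adjusted p = 0.148). Slc3a2, the heavy chain that both transporters bind, measured 4861 and 4959 normalized counts in the controls and 4946 and 5019 in the siTbk1 samples, and its groups overlapped.

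Of the 11 chaperone and cochaperone genes of the ER, 3 (27.3%) were higher, 2 (18.2%) were lower and 6 did not pass. Among all tested genes, 24.4% passed as higher and 24.8% as lower. Hspa5, which encodes the chaperone BiP that also holds the sensors inactive, measured 79962 and 73250 normalized counts in the controls and 88618 and 90818 in the siTbk1 samples. Both siTbk1 samples were above both controls (log2 fold change 0.23, SE 0.057, edgeR adjusted p = 0.00580), but the controls differed from each other, and without siScramble replicate 3 the log2 fold change was 0.17 (edgeR adjusted p = 0.102). Hsp90b1, the ER form of HSP90 named GRP94, measured 105542 and 94860 normalized counts in the controls and 119271 and 123973 in the siTbk1 samples and rose 1.21-fold (log2 fold change 0.28, SE 0.061, edgeR adjusted p = 0.00245). Dnajc3, the BiP cochaperone P58IPK, measured 3039 and 3006 normalized counts in the controls and 3477 and 3655 in the siTbk1 samples and rose 1.18-fold (log2 fold change 0.24, SE 0.057, edgeR adjusted p = 0.00444). In contrast, 2 other genes that work with BiP fell. Dnajb9, the cochaperone ERdj4, measured 1676 and 1534 normalized counts in the controls and 1155 and 1189 in the siTbk1 samples, a fall of 0.46 on the log2 scale (SE 0.070, edgeR adjusted p = 2.33e-04). Hyou1, a nucleotide exchange factor for BiP, measured 27736 and 27548 normalized counts in the controls and 22615 and 22094 in the siTbk1 samples and fell by 0.31 on the log2 scale (SE 0.050, edgeR adjusted p = 3.44e-04). For both genes the siTbk1 samples lay below the controls without overlap.

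Within the BiP system, the log2 ratio of Hspa5 to Dnajb9 counts was 5.58 in each control and 6.26 in each siTbk1 sample. That of Hsp90b1 to Hyou1 was 1.93 and 1.78 in the controls and 2.40 and 2.49 in the siTbk1 samples. These pairs were chosen after their values were seen, and since counts were not divided by transcript length, only the shift of a ratio between samples can be read. Calr and Canx, the lectin chaperones calreticulin and calnexin, had log2 fold changes of 0.14 (edgeR adjusted p = 0.0578) and 0.094 (edgeR adjusted p = 0.194). Calr passed in 8 of the 17 other fits, among them the fit without siScramble replicate 2 (edgeR adjusted p = 0.0448). Manf and Dnajb11, a secreted ER stress factor and a BiP cochaperone, had positive values of 0.063 and 0.034, and Sdf2l1 and Creld2 had values of -0.12 and -0.12, none past the test. The 11 chaperone genes together held 0.867% and 0.807% of all counts in the controls and 0.896% and 0.908% in the siTbk1 samples.

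**Figure D2:**
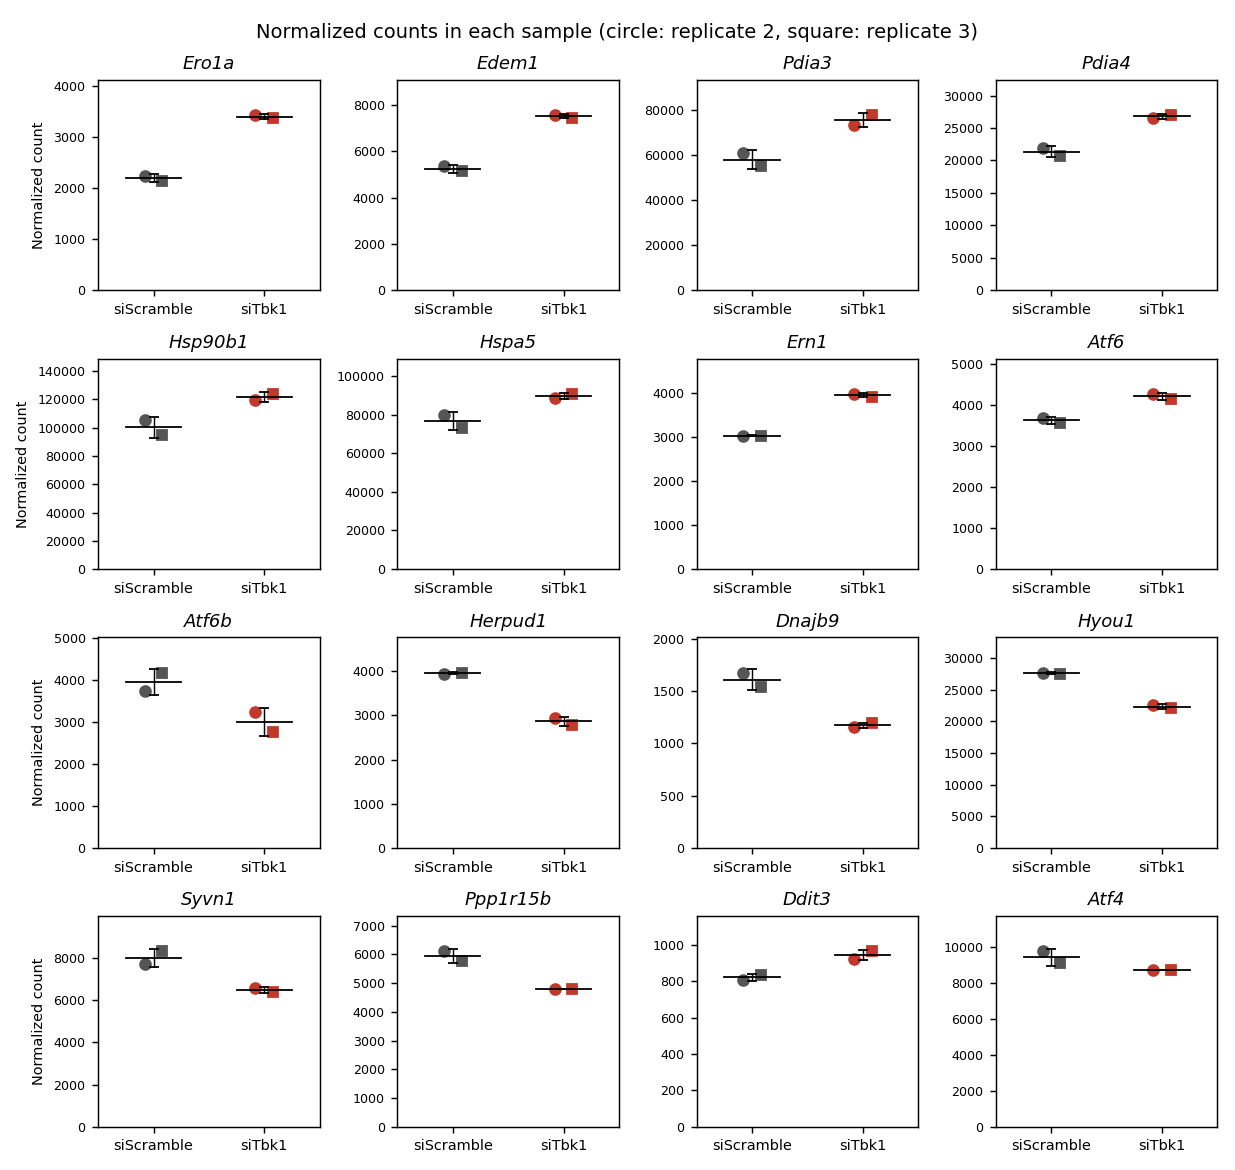
Normalized counts of 16 of the genes in each of the 4 samples (circle, replicate 2, and square, replicate 3), with the mean as a line and the SD as error bars (n = 2), every axis starting at 0. In each panel both siTbk1 samples lie on one side of both controls, above in Ero1a, Edem1, Pdia3, Pdia4, Hsp90b1, Hspa5, Ern1, Atf6 and Ddit3, and below in the other panels.

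Sequences through which the unfolded protein and integrated stress responses are known to act were found in the promoters of 13 of these genes. RefSeq promoters (build GRCr8, of which the 250 bases before the gene start were read) were found for 40 of the 49 genes, and Ero1a was not among them. The ER stress response element, ERSE, written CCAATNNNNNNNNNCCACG and searched on both strands like every motif here, is a binding element of ATF6 with the CCAAT factor NF-Y. It was present in 7 of the 40 promoters (17.5%), against 21 of all 27457 promoters (0.0765%). The genes were chosen by name as parts of these responses, so the choice itself favours such motifs. The shares, for this motif and the others, are therefore a description only. These 7 genes had log2 fold changes from -0.12 (Creld2) to 0.28 (Hsp90b1), with 6 above 0 and 3 past the test, all 3 higher. Of all tested genes, 7093 of 13953 lay above 0 and 24.4% passed as higher, and with 7 genes no pattern is read from these counts. The 8 matches, shown because they share the fixed ends and differ in the 9 bases between, were as follows, with the fixed letters in capitals and matches on the other strand given as they read on the gene's strand.
Hspa5: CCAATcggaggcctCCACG
Hsp90b1, first match: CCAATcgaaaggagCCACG
Hsp90b1, second match: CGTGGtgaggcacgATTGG
Dnajc3: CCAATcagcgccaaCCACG
Calr: CGTGGtcgaccctgATTGG
Canx: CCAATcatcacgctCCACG
Xbp1: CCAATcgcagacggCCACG
Creld2: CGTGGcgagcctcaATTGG

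The promoters of Hspa5, which rose, and of Hyou1 and Herpud1, which fell, are shown whole to set their elements side by side. They were picked by the direction of their change, so no link between motif and direction is read from them. Each is given 5′ to 3′ on the gene's strand and ends at the base before the gene start, with motif matches in capitals. Hspa5 (GRCr8, plus strand, chr3:38452766-38453015) holds 1 exact match to ERSE, which begins at position -43, where -1 is the base before the gene start. Hyou1 (GRCr8, plus strand, chr8:53602632-53602881) holds 2 matches to ERSE-II, written ATTGGNCCACG, on the other strand, at positions -188 and -88, and 1 match to the core of the XBP1 element UPRE, TGACGTGG, which begins at -191 and overlaps the first ERSE-II match. Herpud1 (GRCr8, minus strand, chr19:10614708-10614957) holds 1 ERSE-II at -124 and 1 match to the composite site of C/EBP and ATF factors, TGATGNAA, on the other strand at -184.
Hspa5: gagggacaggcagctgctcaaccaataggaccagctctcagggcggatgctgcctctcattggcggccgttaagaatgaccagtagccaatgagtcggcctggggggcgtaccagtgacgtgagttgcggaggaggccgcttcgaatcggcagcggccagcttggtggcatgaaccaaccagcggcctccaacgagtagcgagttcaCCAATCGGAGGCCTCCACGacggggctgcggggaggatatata
Hyou1: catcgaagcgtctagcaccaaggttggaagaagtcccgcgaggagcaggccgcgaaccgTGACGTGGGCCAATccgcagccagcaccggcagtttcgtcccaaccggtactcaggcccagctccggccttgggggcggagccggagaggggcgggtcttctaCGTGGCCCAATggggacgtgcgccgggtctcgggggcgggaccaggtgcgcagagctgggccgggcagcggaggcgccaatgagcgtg
Herpud1: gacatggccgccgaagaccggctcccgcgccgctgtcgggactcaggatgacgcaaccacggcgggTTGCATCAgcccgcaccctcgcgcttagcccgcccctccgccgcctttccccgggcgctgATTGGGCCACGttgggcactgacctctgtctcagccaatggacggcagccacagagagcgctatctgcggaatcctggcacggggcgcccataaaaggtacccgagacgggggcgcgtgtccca

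ERSE-II was found in these 2 of the 40 promoters (5%), Hyou1 and Herpud1, and in 12 of all promoters (0.0437%). The UPRE core was found in 1 of the 40 (2.5%) and in 0.55% of all promoters. The composite site was present in 4 of the 40 (10%), Chac1, Herpud1, Ppp1r15b and Trib3, against 3.27% of all promoters, and the log2 fold changes of these 4 ran from -0.46 to 0.26. The cAMP response element TGACGTCA was present in Ppp1r15a alone among the 40, against 1.7% of all promoters. The other 27 of the 40 promoters held no exact match to any of the 5 motifs. Every fixed letter had to match, so near matches and sites outside the 250 bases were not counted. A match is a description of the sequence and was not tested as a binding site in these cells.

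**Figure D3:**
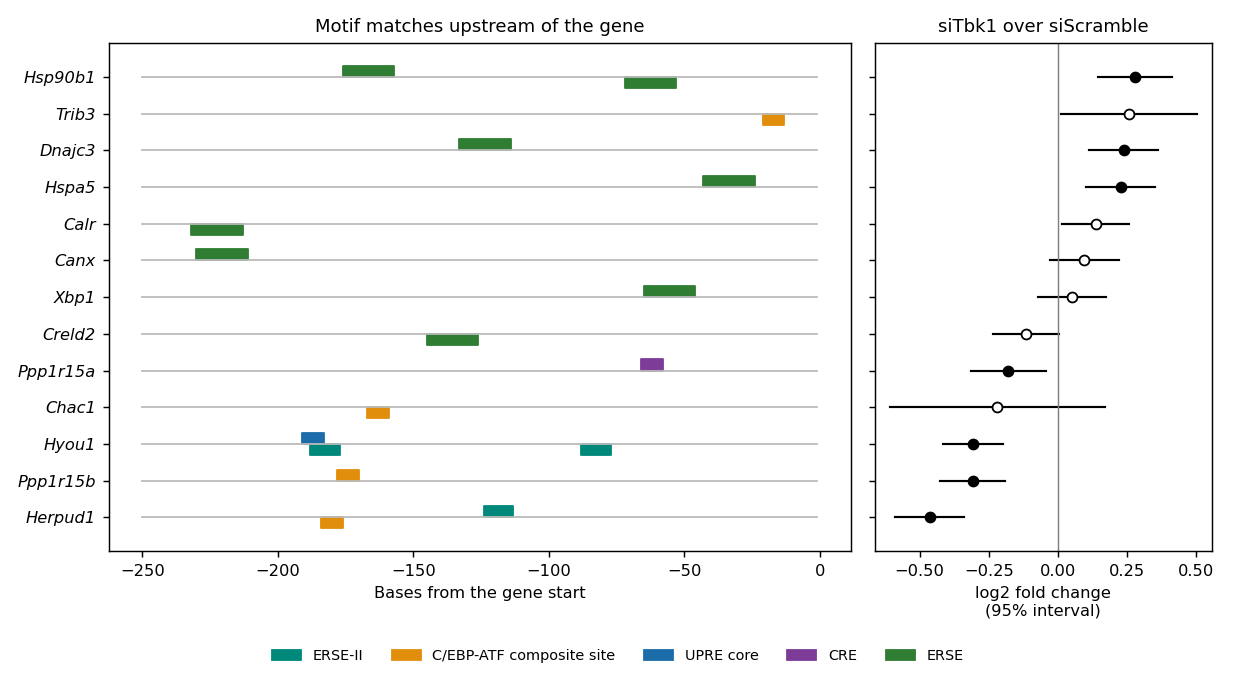
Left, motif matches in the 250 bases upstream of the gene start for the 13 genes with a match (boxes above the line, gene's strand, and below, the other strand). Right, log2 fold change of the same genes with the 95% interval, filled where the adjusted p was under 0.05. The 2 genes with ERSE-II, Hyou1 and Herpud1, lie at -0.31 and -0.46, and 6 of the 7 genes with ERSE lie above 0, as do 7093 of all 13953 tested genes. These few genes are a description.

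Of 5 genes of disulfide formation, which oxidise and pair cysteines of folding proteins, 3 passed as higher, against 24.4% of all tested genes. The other 2, P4hb and Pdia6, had log2 fold changes near 0, of 0.018 and 0.0014, and both were negative without TMM factors. The positions given for Ero1a, Edem1 and Herpud1 are those of the deposited table, and the processing notes name the build rn6 without saying for which step. Ero1a (chromosome 15, 19619973 to 19655382, minus strand), the oxidase that regenerates protein disulfide isomerases, measured 2241 and 2128 normalized counts in the controls and 3427 and 3356 in the siTbk1 samples. It rose 1.55-fold (log2 fold change 0.63, SE 0.059, edgeR adjusted p = 9.24e-06; 95% interval 0.51 to 0.76), and both siTbk1 samples exceeded both controls by more than the distance between replicates. Its log2 fold change exceeded that of 94.7% of all tested genes. The call at 1.5-fold held in all settings except the test against a 1.5-fold change itself (glmTreat), which it did not pass, since its interval reaches below that limit. Pdia3, the isomerase that acts on glycoproteins, measured 60989 and 55034 normalized counts in the controls and 73370 and 77878 in the siTbk1 samples and rose 1.30-fold (log2 fold change 0.38, SE 0.061, edgeR adjusted p = 3.13e-04). Pdia4, another isomerase, measured 21962 and 20739 normalized counts in the controls and 26550 and 27027 in the siTbk1 samples and rose 1.25-fold (log2 fold change 0.33, SE 0.052, edgeR adjusted p = 3.08e-04). P4hb, the isomerase PDI, measured 90931 and 87722 normalized counts in the controls and 90831 and 90090 in the siTbk1 samples. Pdia6, of the same family, measured 16602 and 16599 normalized counts in the controls and 17000 and 16229 in the siTbk1 samples. The groups overlapped in both, with 95% intervals of the log2 fold change from -0.095 to 0.13 for P4hb and from -0.11 to 0.11 for Pdia6.

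Of the 7 ERAD genes, 4 were higher, 2 lower and 1 did not pass, where 49.2% of all tested genes passed in either direction. The 2 extremes were both clear of the replicate spread. Edem1 (chromosome 4, 140886545 to 140915780, plus strand), a lectin that hands misfolded glycoproteins to degradation, measured 5366 and 5133 normalized counts in the controls and 7581 and 7465 in the siTbk1 samples. It rose 1.43-fold (log2 fold change 0.52, SE 0.053, edgeR adjusted p = 1.70e-05). Herpud1 (chromosome 19, 11046909 to 11057255, minus strand), a membrane protein that organises the ubiquitin ligase complex, measured 3937 and 3971 normalized counts in the controls and 2937 and 2794 in the siTbk1 samples. It fell by 0.46 on the log2 scale (SE 0.057, edgeR adjusted p = 5.64e-05). The log2 ratio of Edem1 to Herpud1 counts was therefore 0.45 and 0.37 in the controls and 1.37 and 1.42 in the siTbk1 samples. As the highest and lowest of the 7, this pair was picked from these values, so the shift of its ratio adds no support.

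Genes of the core ERAD ligase moved in opposite directions. Syvn1, the ubiquitin ligase HRD1, measured 7702 and 8314 normalized counts in the controls and 6580 and 6369 in the siTbk1 samples and fell by 0.31 on the log2 scale (SE 0.056, edgeR adjusted p = 7.89e-04). Sel1l, the adaptor that stabilises HRD1, measured 15153 and 14791 normalized counts in the controls and 16799 and 17085 in the siTbk1 samples and rose 1.13-fold (log2 fold change 0.18, SE 0.05, edgeR adjusted p = 0.0107). Sel1l, part of whose reads were split, did not pass without siScramble replicate 3 (edgeR adjusted p = 0.0747), without siTbk1 replicate 3 (edgeR adjusted p = 0.0635) or with the gene length offset (edgeR adjusted p = 0.105). Derl1 and Derl2, channel components for proteins leaving the ER, both rose. Derl1 measured 6952 and 6953 normalized counts in the controls and 8567 and 8755 in the siTbk1 samples (log2 fold change 0.32, SE 0.051, edgeR adjusted p = 3.13e-04), and Derl2 measured 1426 and 1382 normalized counts in the controls and 1660 and 1639 in the siTbk1 samples (log2 fold change 0.23, SE 0.063, edgeR adjusted p = 0.00930). Without siTbk1 replicate 2, the edgeR adjusted p of Derl2 was 0.0611. Selenos, a selenoprotein that binds derlins, measured 4302 and 4131 normalized counts in the controls and 4301 and 4444 in the siTbk1 samples, and its groups overlapped.

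The 2 remaining ER membrane genes did not pass. Wfs1, the gene of Wolfram syndrome, in which beta cells are lost, measured 1421 and 1564 normalized counts in the controls and 1476 and 1332 in the siTbk1 samples (log2 fold change -0.084, SE 0.076, edgeR adjusted p = 0.381). Sec61b, a subunit of the translocation channel, measured 5823 and 6318 normalized counts in the controls and 5968 and 5554 in the siTbk1 samples (log2 fold change -0.074, SE 0.06, edgeR adjusted p = 0.331). In both, siTbk1 replicate 2 lay within the range of the controls.

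The direction of a gene went with its genomic span, the distance from its start to its end in the table, introns included. The median span was 26.2 kb for the 16 genes that rose and 8.01 kb for the 9 that fell, against 12.1 kb for all 49 genes. When all tested genes were divided by span into 5 classes of nearly equal size, the median log2 fold change was -0.092 in the class of shortest genes and 0.12 in that of the longest. The Spearman correlation of span with log2 fold change was 0.45 over the 49 genes and 0.21 over all 13953, as a description across genes, which share the 4 libraries and are not independent replicates. When each library's trend along span was removed as an offset, 18 of the 49 genes passed as higher and 8 as lower, with 20 of the 25 that passed before still passing. With the offset, Ero1a (log2 fold change 0.59), Edem1 (0.50), Herpud1 (-0.39) and Dnajb9 (-0.35) still passed, and Atf6, Atf5, Ppp1r15a, Slc7a11 and Sel1l no longer passed. Xbp1, Eif2ak3, Trib3, Shmt2, Calr and Manf passed with the offset, Eif2ak3 as lower (-0.16) and the other 5 as higher. Of these 6, Xbp1, Eif2ak3 and Manf passed in that fit alone among the 17. With the offset and the replicate block together, 14 genes passed as higher and 7 as lower, and Dnajc3 and Slc7a5 did not pass either.

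**Figure D4:**
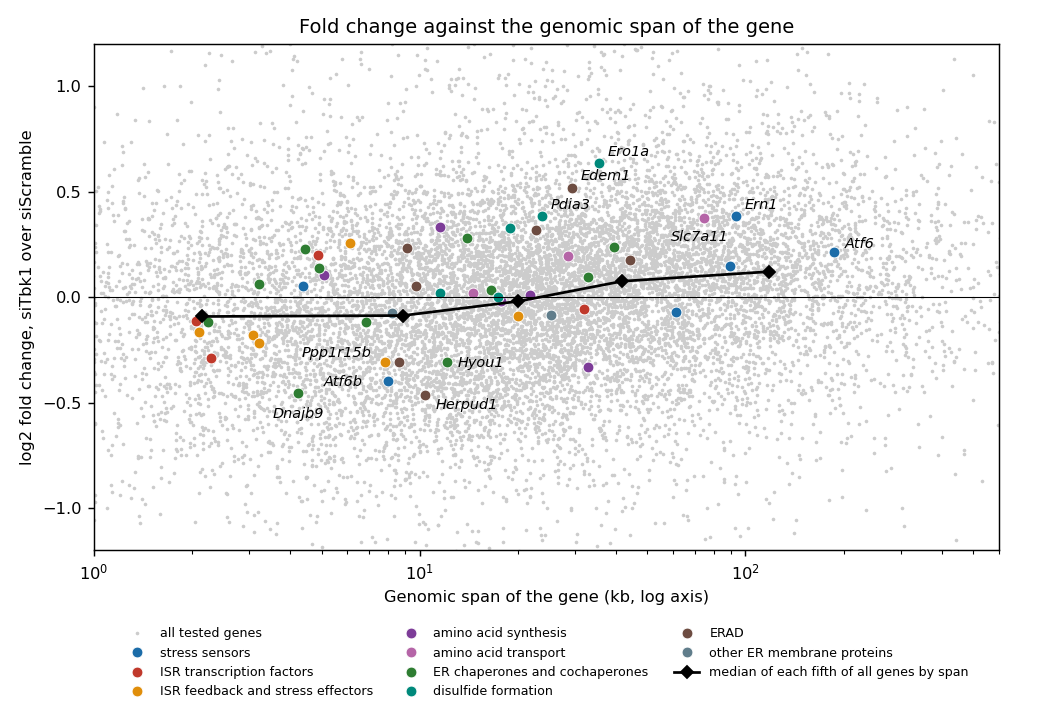
Log2 fold change (siTbk1 over siScramble) against genomic span in kb (log axis) for all tested genes in grey and the 49 stress response genes in colour by branch, with grey genes beyond the axis limits not drawn. The black line joins the medians of 5 classes of all genes by span and goes from -0.092 to 0.12. Genes such as Ero1a and Herpud1 lie further from 0 than this line at their span.

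As a share of all counts, the 49 genes made up 1.65% and 1.57% in the controls and 1.71% and 1.72% in the siTbk1 samples. The share of the ISR transcription factors was 0.0335% and 0.0339% in the controls and 0.0299% and 0.0296% in the siTbk1 samples. That of the disulfide formation genes was 0.453% and 0.431% in the controls and 0.483% and 0.489% in the siTbk1 samples. Both sums thus kept the groups apart, in opposite directions, but each is weighted towards its most abundant genes. Atf4, which did not pass, had the highest counts of the ISR factors, while Ddit3 among them was higher. P4hb had the highest counts of the disulfide formation genes, and its groups overlapped. Counts of the mitochondrial genome moved in the same libraries, from 6.28% and 6.09% to 7.92% and 8.38%, and their part in these shares was not tested.

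**Figure D5:**
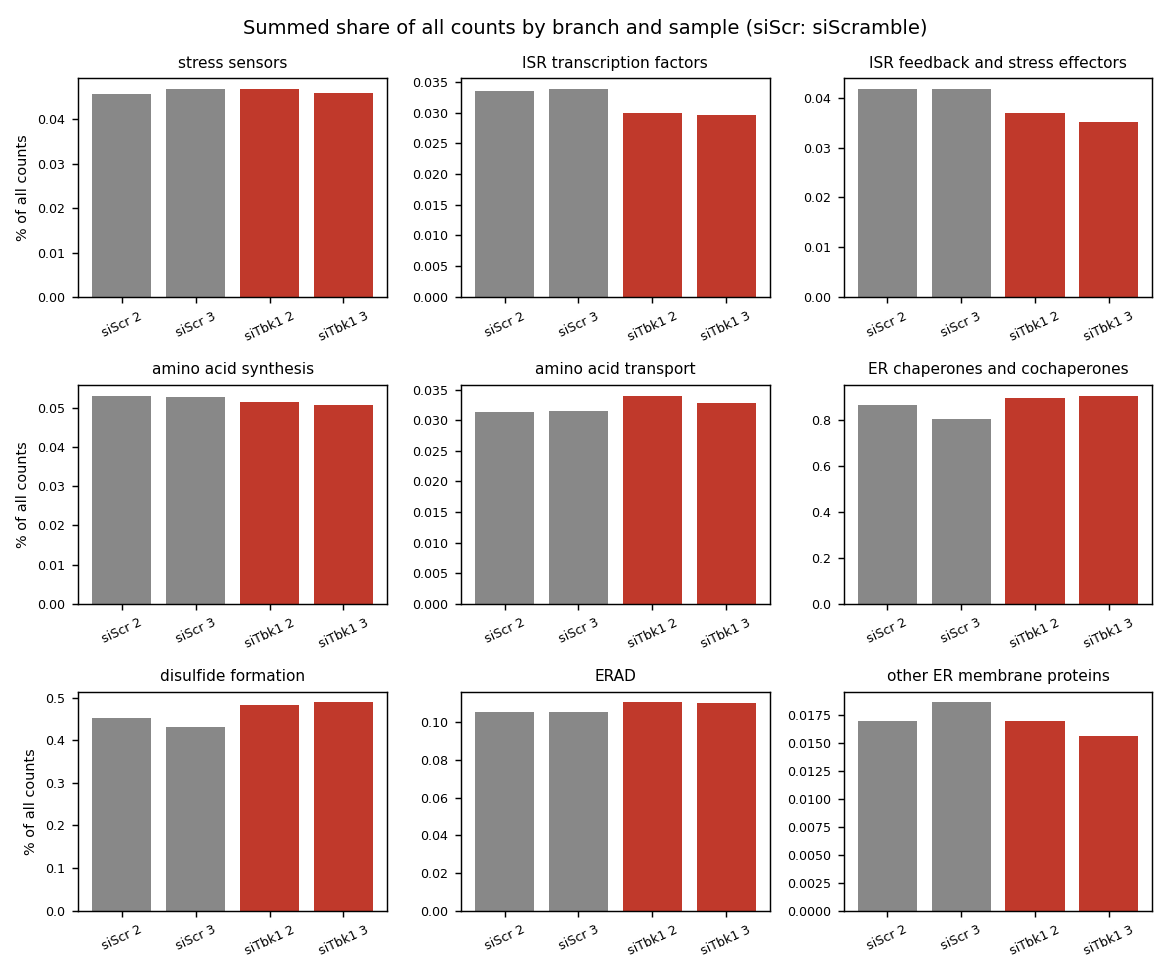
Share of all counts (%) held by each branch in each of the 4 samples, on axes that start at 0. The siTbk1 samples lie below the controls in the ISR transcription factors, feedback genes and amino acid synthesis genes, above them in the amino acid transport, chaperone, disulfide formation and ERAD genes, and the groups overlap or nearly touch in the sensors and the other ER membrane genes.

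Genes of the same pathways outside the 49 were taken from 7 further lists, whose counts are to be set against the 24.4% of all tested genes that passed as higher and the 24.8% that passed as lower. Of 19 other targets of ATF4 and CHOP, 5 (26.3%) passed as higher and 6 (31.6%) as lower, with a median log2 fold change of 0.0070. The 1 gene among them past the 1.5-fold limit was Pycr1, a proline synthesis enzyme of low count, at 71.8 and 53.3 normalized counts in the controls and 31.2 and 26.3 in the siTbk1 samples (log2 fold change -1.12, edgeR adjusted p = 0.00467). It is named because it was the only one, after its value was seen. Nupr1, a small stress-induced nuclear protein, measured 4148 and 4065 in the controls and 3162 and 3251 in the siTbk1 samples (log2 fold change -0.36, SE 0.055, edgeR adjusted p = 2.49e-04), with part of its reads split. Of 20 cytosolic aminoacyl-tRNA synthetase genes, many of them known ATF4 targets, 2 (10%) were higher and 5 (25%) lower, with a median of -0.026. Of 15 components of the eIF2 pathway 5 (33.3%) were higher and 3 (20%) lower. In neither of these 2 lists did a gene pass the 1.5-fold limit, by edgeR, DESeq2 or limma-voom. An unadjusted edgeR p under 0.05 was reached by 8 of the 20 synthetase genes and 9 of the 15 eIF2 pathway genes. Of all 13953 tested genes, 3844 were higher and 3886 lower at that limit.

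Among 28 other genes of ER folding and glycoprotein quality control, 12 (42.9%) were higher and 5 (17.9%) lower, with a median log2 fold change of 0.12. The 3 past the 1.5-fold limit were all higher. Ero1b, the paralogue of Ero1a that is abundant in islets, measured 1497 and 1453 in the controls and 2466 and 2556 in the siTbk1 samples, so both oxidases of this pathway rose (log2 fold change of Ero1b 0.77, SE 0.061, edgeR adjusted p = 3.46e-06). Tmx4, a membrane-bound member of the thioredoxin family, and Sumf1, an ER enzyme that activates sulfatases, had log2 fold changes of 0.78 and 0.68. Among 30 genes of the translocon, signal peptidase and oligosaccharyltransferase, which receive and glycosylate nascent chains, 17 (56.7%) were higher and 4 (13.3%) lower, with a median of 0.24. Spcs2, of the signal peptidase, had a log2 fold change of 0.63, and Magt1, of the oligosaccharyltransferase, one of 0.94, with part of its reads split.

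Of 27 other ERAD genes, 7 (25.9%) were higher and 8 (29.6%) lower, with a median of 0.020. Ube2j1, a membrane-bound ubiquitin-conjugating enzyme, had a log2 fold change of -0.81 with part of its reads split, and Tmub1, a membrane protein with a ubiquitin-like domain, one of -0.63. Of 14 other transducers of ER stress, 5 (35.7%) were higher and 4 (28.6%) lower. Crebrf, a regulator that promotes loss of the factor CREB3, measured 699 and 713 in the controls and 2022 and 2146 in the siTbk1 samples, 2.95-fold higher (log2 fold change 1.56, SE 0.069, edgeR adjusted p = 8.16e-08). Creb3 itself, with part of its reads split, had a log2 fold change of -0.11 (edgeR adjusted p = 0.101). Bloc1s1, whose mRNA is a known substrate of the IRE1 nuclease, measured 693 and 855 in the controls and 515 and 497 in the siTbk1 samples (log2 fold change -0.61, SE 0.10, edgeR adjusted p = 4.95e-04). Both siTbk1 samples of Bloc1s1 lay below both controls, and the controls differed more from each other than the siTbk1 samples did.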

How the data were processed

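Gene expression was measured in 4 samples, 2 siScramble and 2 siTbk1. The authors deposited expected counts of reads per gene, not scaled between samples, and the submitters' processing notes name STAR 2.6.1d, Partek and the genome build rn6. The counting settings and annotation are not given in the sources used here. The deposited expected counts were rounded to whole numbers, since reads shared by similar genes are split between them. Reads were taken as split where any library's count was over 0.01 away from a whole number, which held for 8 of the 49 genes.

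The filterByExpr function (edgeR 4.0.16, minimum count 10) kept 13953 of 15172 genes. Library sizes were scaled with TMM factors (0.982 to 1.02), and the groups were compared with edgeR's quasi-likelihood test with treatment as the only factor and Benjamini-Hochberg adjustment over all tested genes. The limits were an adjusted p of 0.05, with and without a fold change of at least 1.5. The SE is the log2 fold change divided by the square root of its F statistic. A count of 3 equals 0.0628 to 0.0781 CPM at the depth of these libraries, and the number of samples limits the precision.

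The gene length offset is a loess trend (span 0.5), in each library, of log2 CPM deviations along log10 genomic span. Promoters were read from RefSeq (GRCr8) by gene symbol. Other fits used limma 3.58.1 and DESeq2 1.42.0 in R 4.3.3, with Python 3.11.15 and matplotlib 3.10.9 for the figures. Scripts were checked on simulated data. The genes, their branches and the further lists were chosen with earlier results of these data known. All listed members are named. In the 7 further lists the genes named are up to 4 per direction past both limits whose higher group reached 10 CPM, besides Crebrf, Creb3 and Nupr1 whatever their change, and Pycr1, named after its value was seen although below 10 CPM. The alternatives were a replicate block, other tests, scalings and filters, glmTreat, the gene length offset, thinning to the smallest library, truncated counts and leaving out each sample.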

Additional observations from a re-analysis of the deposited data

How the results depend on the processing

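With 2 samples per group, the precision is set by the number of samples, and fits without 1 sample assume that the lone sample varies like the other group. Of the 25 genes past the adjusted p, 15 passed in all 17 other fits that tested against no change, 8 higher and 7 lower. The sign changed in 0 of the 25. The numbers past as higher and lower ranged from 12 to 18 and from 7 to 11 over these fits. With glmTreat, 0 genes were called higher. The median log2 fold change of the 49 genes was -0.014 with library size alone (all tested genes -0.040), 0.071 with the gene length offset, 0.071 with that offset and the replicate block, 0.024 after thinning, and 0.022 to 0.042 when 1 sample was left out. For these and for the changes of sign, the cause was not tested.

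By label, the samples share only a number, but total counts also went with it. They were 47443061 (siScramble) and 47759013 (siTbk1) for replicate 2, and 38811919 and 38428926 for replicate 3. Pearson's r between the residuals of samples that carry one number (value minus group mean) was -0.081 across the 13953 genes and -0.39 across 7945 genes averaging 4 log2 CPM or more. With the replicate block, 15 genes were higher and 8 lower, with Ddit3 and Ppp1r15a no longer past the limit (edgeR adjusted p = 0.0886 and 0.0844). With the crossed pairing, chosen after seeing the data, 18 were higher and 11 lower.

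The sign changed only in 9 genes, none past the limit. With library size alone the log2 fold change was -0.037 for Psat1, -0.026 for Slc3a2, -0.014 for Dnajb11, -0.029 for P4hb and -0.046 for Pdia6. The Pdia6 log2 fold change was also -0.00526 with DESeq2, -0.00646 with no filter and -0.00434 with at least 10 counts in every sample. With the gene length offset, with or without the block, Asns was at 0.012 and Sec61b at 0.015, and after thinning Atf3 was at 0.0072. Leaving out 1 sample gave ranges of -0.046 to 0.0019 for Asns, -0.021 to 0.042 for Psat1, -0.25 to 0.092 for Atf3, -0.56 to 0.020 for Chac1, -0.024 to 0.095 for Dnajb11, -0.0083 to 0.045 for P4hb and -0.045 to 0.035 for Pdia6.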
